A study of Mus musculus with 8 samples.

Results

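The cells described here are CD8 T cells with strong interferon-response RNA, recovered from the spleens and tumors of mice 7 days after transfer (d7). A T cell was called interferon-high if at least 3 of 5 interferon-stimulated genes, Ifit1, Ifit3, Rsad2, Usp18 and Cxcl10, had a UMI (a unique molecular identifier, 1 counted RNA molecule). T cells of the same tissue with none of the 5 were the comparison cells. Of 18092 barcodes in the study, 11584 were from d7 and 10576 of these were T cells with a usable hashtag (an antibody barcode that names the sample). Of these T cells 516 were interferon-high, or 4.88% (exact 95% binomial interval 4.48% to 5.31%), and 7192 had none of the 5 genes. The interferon-high cells were 42 of 2043 T cells from tumors and 474 of 8533 from spleens.

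CD8 T cells of 3 donor mice had shared a culture with bone marrow stromal cells (BMSCs) carrying the red protein dsRed in their mitochondria. A sort then parted them by dsRed into MitoPositive and MitoNegative cells, which were put into B6 mice bearing B16KVP tumors. The names thus give what the sort saw before transfer, 7 days before the cells were sequenced. Each of the 4 groups, tumor MitoPositive, tumor MitoNegative, spleen MitoPositive and spleen MitoNegative, had 3 hashtagged samples, 1 per donor, and the 3 libraries were the donors. Per the deposited hashtag list, spleen and tumor of an arm came from the same recipients, and MitoPositive and MitoNegative cells of a donor went into different recipients. The recipient and the arm can therefore not be told apart. All groups share the co-culture, the sort and the transfer, and no untransferred d7 cells are among them. The age of the mice and the strain of the donors are not given in the sources used here. A dsRed-negative cell is one in which the sort found no dsRed, and how long transferred mitochondria last was not measured.

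Type I interferons bind the receptor IFNAR and, through the kinases Jak1 and Tyk2, send transcription factors to the nucleus. These bind interferon-stimulated response elements, promoter sequences built on repeats of GAAA, and turn on antiviral genes. Interferon-gamma acts through another receptor, and many genes respond to both, among them those of MHC class I presentation. In T cells, type I interferon is known to act on survival, expansion and cytotoxicity, in either direction depending on when it arrives.

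The selecting genes have known parts in this response. Ifit1 and Ifit3 bind RNA and help block viral translation, and Rsad2 (viperin) makes an antiviral nucleotide. Usp18 removes the ubiquitin-like protein Isg15 from its targets and dampens IFNAR signalling. Cxcl10 is a chemokine that attracts cells carrying Cxcr3. In GRCm38, Ifit1 lies at chr19:34640871-34650009 on the plus strand and Ifit3 at chr19:34583531-34588731, also plus. Rsad2 lies at chr12:26442746-26456452 (minus), Usp18 at chr6:121245906-121270917 (plus), Cxcl10 at chr5:92346638-92348889 (minus) and Isg15 at chr4:156199424-156200818 (minus). All are protein-coding.

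The response element can be read in the promoters of the selecting genes. The sequences are the 250 bases before the gene start in RefSeq (GRCm38.p6), written 5′ to 3′ on the gene's strand, and capitals mark matches to GAAANNGAAA on either strand. Isg15, which the selection did not use, is shown with them because its RNA was among the most different. Usp18 had no entry in the table.
Ifit1, chr19:34640639-34640888, plus strand: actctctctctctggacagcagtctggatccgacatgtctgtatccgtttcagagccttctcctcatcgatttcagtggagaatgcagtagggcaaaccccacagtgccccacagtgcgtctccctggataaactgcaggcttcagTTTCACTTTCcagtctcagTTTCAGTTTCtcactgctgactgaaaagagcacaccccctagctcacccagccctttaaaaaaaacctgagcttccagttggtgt
Ifit3, chr19:34583279-34583528, plus strand: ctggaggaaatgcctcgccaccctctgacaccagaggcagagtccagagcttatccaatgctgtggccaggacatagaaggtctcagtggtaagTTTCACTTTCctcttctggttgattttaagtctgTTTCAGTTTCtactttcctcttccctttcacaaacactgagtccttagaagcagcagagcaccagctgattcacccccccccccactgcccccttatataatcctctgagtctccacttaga
Rsad2, chr12:26456453-26456702, minus strand: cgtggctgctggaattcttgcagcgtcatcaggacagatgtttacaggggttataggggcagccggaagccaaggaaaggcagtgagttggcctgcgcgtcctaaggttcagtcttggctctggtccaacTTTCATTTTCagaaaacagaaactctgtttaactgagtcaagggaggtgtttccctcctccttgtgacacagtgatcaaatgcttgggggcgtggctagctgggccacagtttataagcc
Cxcl10, chr5:92348890-92349139, minus strand: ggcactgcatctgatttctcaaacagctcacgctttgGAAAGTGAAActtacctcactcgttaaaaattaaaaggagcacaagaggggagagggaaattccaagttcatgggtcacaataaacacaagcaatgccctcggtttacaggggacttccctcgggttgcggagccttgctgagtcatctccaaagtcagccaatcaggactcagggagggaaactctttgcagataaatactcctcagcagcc
Isg15, chr4:156200819-156201068, minus strand: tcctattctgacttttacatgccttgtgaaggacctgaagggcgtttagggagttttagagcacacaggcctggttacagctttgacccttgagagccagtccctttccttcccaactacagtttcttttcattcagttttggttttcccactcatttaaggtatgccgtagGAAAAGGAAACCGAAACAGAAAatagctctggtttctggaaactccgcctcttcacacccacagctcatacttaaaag

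The matches start 104 and 85 bases before the gene start in Ifit1, 156 and 122 in Ifit3, 120 in Rsad2 and 213 in Cxcl10. In Isg15, 3 overlapping matches start 78, 72 and 66 bases before it. All 4 selecting genes with an entry held a match, as did 936 of 27025 promoters in the table (3.46%). Of the 338 genes that were higher in interferon-high spleen T cells (below), 272 had an entry, and 57 of these (21.0%) held a match. Of the 9 lower genes 2 did (22.2%). Among those of the 338 that lie outside the interferon and MHC lists, 26 of 192 with an entry did (13.5%). The other element, TTCNNNGAA, the core of the gamma-activated site, was found in 30 of the 272 (11%), in 0 of the 4 selecting genes and in 2197 of all promoters (8.13%). A match describes these letters in this window and does not show binding.

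The 3 d7 libraries held 5221, 4896 and 1467 barcodes with medians of 6858, 5900.5 and 8814 UMIs, and shared 7, 2 and 2 barcodes pairwise; 1 barcode of an interferon-high cell also occurred in another library. A Cd8a or Cd8b1 UMI was found in 80.0% to 100% of the interferon-high cells of each sample in the fits, and a Cd4 UMI in at most 2.5%. The MitoNegative spleen sample of donor 1 gave 278 of the 474 spleen cells. Fits of genes used samples with at least 10 interferon-high cells, and in the tumor also the MitoNegative sample of donor 2 with 5 when set against comparison cells. They held 5 spleen samples (MitoPositive donors 1 and 2, MitoNegative donors 1, 2 and 3) and 3 tumor samples (MitoPositive donors 2 and 3, MitoNegative donor 2). The MitoNegative tumor sample of donor 3 was not in the fits, because it had only 3 interferon-high cells. Of these, 2 barcodes held 152417 and 140391 UMIs and the melanoma gene Pmel (394 UMIs over all tumor interferon-high cells).

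Interferon-high cells were a smaller share of T cells in the tumor in most donor and arm pairs, but not beyond the spread of the pairs. In MitoPositive tumors they were 3 of 171, 13 of 984 and 18 of 663 T cells of donors 1, 2 and 3 (1.75%, 1.32% and 2.71%). In MitoNegative tumors they were 0 of 30, which at 3 counts allows a share of up to 10%, 5 of 84 (5.95%) and 3 of 111 (2.70%). The last 3 include the 2 barcodes of 152417 and 140391 UMIs named above. They stay in the shares with all UMIs and in the numbers of selecting genes below. In MitoPositive spleens they were 40 of 1129, 75 of 2242 and 3 of 48 (3.54%, 3.35% and 6.25%), and in MitoNegative spleens 278 of 3380, 49 of 1213 and 29 of 521 (8.22%, 4.04% and 5.57%). The tumor share was the lower one in 5 of 6 pairs, and that of MitoNegative donor 2 the higher.

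The mean share was 2.41% ± 2.01 in tumors and 5.16% ± 1.89 in spleens (SD, n = 6 each), a difference of -2.75 percentage points (exact two-sided sign-flip test over 6 pairs, p = 0.0938, where the smallest possible p is 0.0312). Tumor cells were deeper, with medians per sample of 9982.5 to 22568 UMIs against 5360.5 to 7376 in spleens. Thinning every cell to 3000 UMIs, which left out 73 tumor and 763 spleen cells, gave 0.703% ± 0.746 in tumors and 2.99% ± 1.05 in spleens (exact p = 0.0625). With 4 of the 5 genes required, the share was 0.755% in tumors and 2.42% in spleens, lower in all 6 pairs (exact p = 0.0312). With Cxcl10 left out and 3 of the remaining 4 required, it was 1.30% and 4.98% (exact p = 0.0312). With the hashtag caller HTODemux it was 3.95% in tumors and 5.90% in spleens (exact p = 0.156), and the MitoPositive tumor sample of donor 1 then had 13 of 196 (6.63%). Without cells holding 2 or more UMIs of 20 myeloid markers it was 1.49% in tumors and 2.76% in spleens, a difference of -1.26 points (exact p = 0.406), and higher in the tumor in 2 of 6 pairs.

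**Figure D1:**
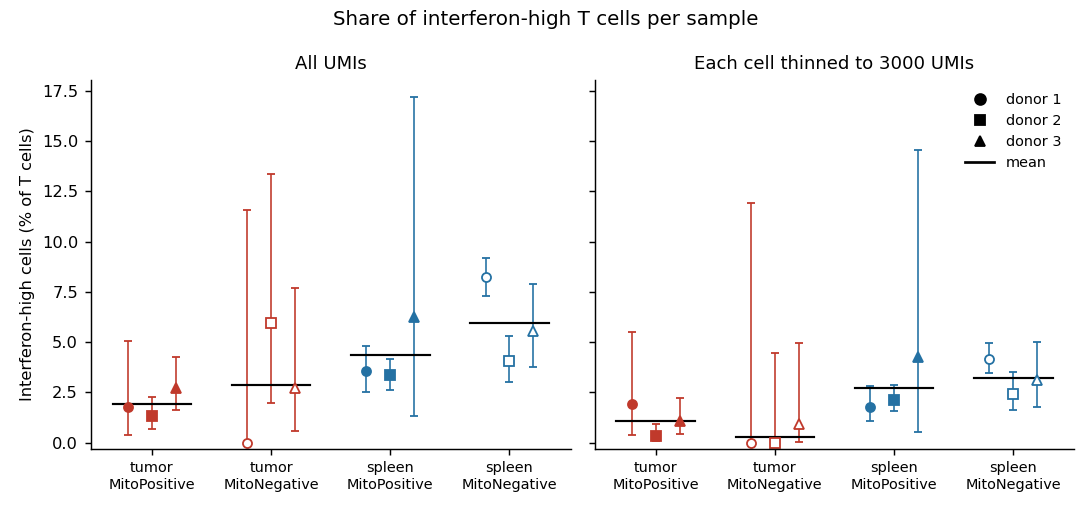
Share of T cells that were interferon-high in each sample (y axis, percent), by tissue and arm, with all UMIs (left) and with each cell thinned to 3000 UMIs (right). Symbols are donors, bars exact 95% binomial intervals that cover counting error only, and lines the means of 3 samples. Tumor shares ran from 0 to 5.95% and spleen shares from 3.35% to 8.22% with all UMIs.

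The arms could not be separated. MitoPositive spleen samples averaged 4.38% ± 1.62 and MitoNegative ones 5.94% ± 2.12 (SD, n = 3 each, exact two-sided permutation p = 0.4). The difference, -1.56 points, was -0.51 when thinned, -0.0053 without donor 1 and -2.69 without donor 3. In tumors MitoPositive samples averaged 1.93% ± 0.713 and MitoNegative ones 2.89% ± 2.98 (exact p = 0.8). With 3 against 3 samples no p below 0.1 is possible. The tumor difference changed direction under several settings given in the closing section. As levels for the background of the rule, 46 of 5499 T cells in culture before transfer (0.837%, 0.613% to 1.11%, median 7448 UMIs) met it, as did 7 of 218 d7 barcodes without a CD3 UMI (3.21%, 1.30% to 6.5%, median 1749.5 UMIs).

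The selecting genes were used in different proportions in both tissues. Of the tumor cells, Ifit1 was detected in 35 of 42, Ifit3 in 31, Rsad2 in 30, Usp18 in 27 and Cxcl10 in 24. Of the spleen cells, Ifit1 was detected in 449 of 474, Ifit3 in 439, Usp18 in 406, Rsad2 in 307 and Cxcl10 in 132. The most frequent combination in the tumor was Ifit1, Ifit3 and Rsad2 (9 cells), and in the spleen Ifit1, Ifit3 and Usp18 (134 cells). All 5 genes were found in 6 tumor and 78 spleen cells. Over all T cells, Cxcl10 was the gene detected more widely in tumor, in 11.4% of tumor and 2.72% of spleen T cells, whereas Ifit1 was found in 4.94% and 14.8%. These values come from the selection itself and are a description.

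The number of selecting genes per T cell was graded. Of d7 T cells, 68.0% had none of the 5, 20.9% had 1, 6.19% had 2, 2.53% had 3, 1.55% had 4 and 0.794% had 5. The summed level of 82 other interferon-stimulated genes was higher with each gene more in 9 of 12 samples where classes of at least 5 cells are read. Smaller classes did not keep that order: the MitoPositive tumor sample of donor 3 had 36688 CPM (UMIs of a gene scaled to the same total in every sample) with 4 genes and 22855 CPM in the 4 cells with 5. In the MitoPositive spleen sample of donor 1 it was 11170, 13991, 16945, 27497, 32818 and 45412 CPM in cells with 0, 1, 2, 3, 4 and 5 genes. MitoNegative spleen cells of donor 1 had 13413, 15311, 18208, 21261, 27894 and 33461 CPM, higher than that sample with 0 genes and lower with 5. Just inside and just outside the threshold, Isg15 had 934 CPM with 3 genes and 177 CPM with 2 in the first of these samples, and 606 and 334 CPM in the second. In tumor, the MitoPositive sample of donor 2 had 4149, 4482, 8863 and 16128 CPM of the 82 genes in cells with 0, 1, 2 and 3 genes, below the spleen values at each number, and 7698 CPM in its 2 cells with 4. The barcode of 152417 UMIs in the MitoNegative tumor sample of donor 3, with 3 genes, had 1771 CPM of the 82 genes and 0 CPM of Isg15. Cells of that sample with 0 genes had 4369 CPM of the 82 genes.

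**Figure D2:**
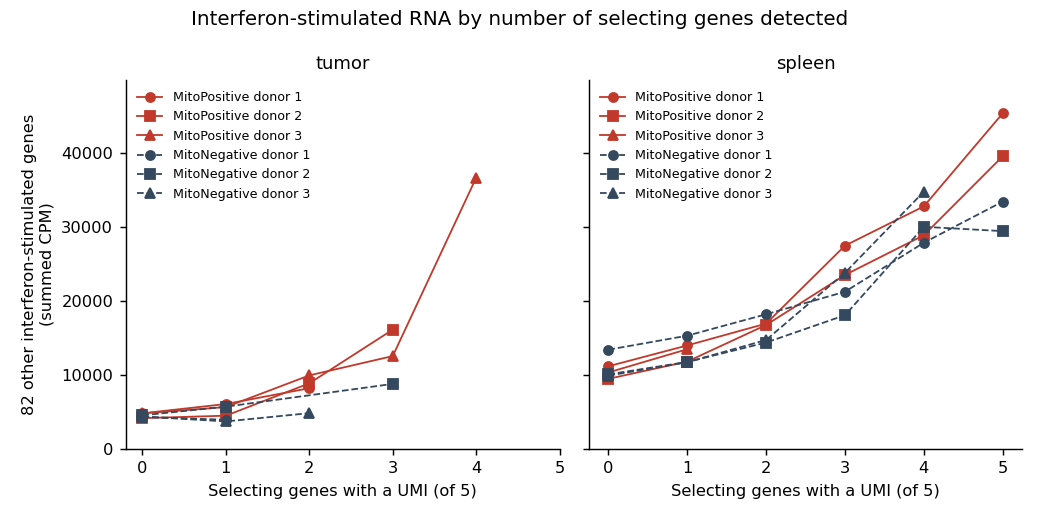
Summed CPM of 82 other interferon-stimulated genes (y axis) in T cells with 0 to 5 of the selecting genes (x axis), tumor left and spleen right, 1 line per sample. Classes with at least 5 cells are drawn. The level was higher in cells with more genes in most samples, with a dip in MitoNegative tumor donors 1 and 3 at 1 gene and in MitoNegative spleen donor 2 at 5, and at 0 genes tumor samples ran from 4149 to 4803 CPM and spleen samples from 9471 to 13413 CPM.

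Interferon-high spleen T cells carried a broad interferon programme beyond the selecting genes. Because the cells were chosen for 5 interferon-stimulated genes, the differences from cells with none are a description, with fitted log2 fold changes and their standard errors but no p. Of 9901 genes tested, 347 passed an adjusted p of 0.05 (3.5%), 338 on the higher side (3.41%) and 9 on the lower (0.0909%). The median over all genes was -0.05. Of 82 other interferon-stimulated genes 76 were measured well enough to test, and 73 of these were higher and 1 lower, with a median of 2.06. With comparison cells matched in UMIs, 265 of the 291 higher genes tested in both fits were higher again (91.1%). Without donor 1, which holds the sample of 278 cells, 202 genes passed. Without cells holding 2 or more myeloid UMIs (69.2% of interferon-high and 43.3% of comparison cells), 351 genes passed, 238 of them higher and all others lower, so that far more were lower than with all cells.

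Isg15, the ubiquitin-like protein that Usp18 removes, was at 1215 and 1200 CPM in interferon-high cells of MitoPositive donors 1 and 2 and at 986, 1140 and 1196 CPM in those of MitoNegative donors 1, 2 and 3. In comparison cells of the same samples, in the same order, it was at 30.8, 35.4, 97.9, 48.4 and 37.5 CPM. The groups did not overlap, and the MitoNegative sample of donor 1 was the highest among comparison cells. The log2 fold change was 4.68 ± 0.25 (SE). The antiviral gene Oas2, whose product senses double-stranded RNA, was at 43.9, 78.6, 28.8, 62.6 and 90.6 CPM in interferon-high cells and at 2.45, 2.24, 3.92, 2.26 and 2.50 CPM in comparison cells (4.33 ± 0.36). Slfn5, of the Schlafen family, was at 554, 471, 272, 261 and 453 CPM against 25.5, 24.8, 14.6, 17.4 and 24.3 CPM (4.30 ± 0.20). In each of these genes every interferon-high sample lay above every comparison sample.

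Most genes with the largest differences were close relatives of the selecting genes or other antiviral effectors. Ifit3b, a near copy of Ifit3 whose reads may be shared with it, differed by 5.41 ± 0.27 on the log2 scale, with 92.8 to 130 CPM in interferon-high and 1.21 to 4.37 CPM in comparison cells. The 2'-5' oligoadenylate synthetase-like gene Oasl2 differed by 5.12 ± 0.33, and the DNA sensor family members Ifi204 and Ifi211, which are also similar in sequence, by 5.10 ± 0.36 and 4.93 ± 0.29. The RNA sensor Ifih1 (MDA5) differed by 3.39 ± 0.18, Ddx60, a helicase, by 3.19 ± 0.16, the exonuclease Isg20 by 3.98 ± 0.22 and Cmpk2, the neighbour of Rsad2, by 3.70 ± 0.19. Ube2l6, the enzyme that attaches Isg15, differed by 3.45 ± 0.37, and Irf7, the transcription factor that amplifies the response, by 2.88 ± 0.15. Bst2 (tetherin), which holds back budding virus, was at 607 to 1009 CPM in interferon-high and 114 to 225 CPM in comparison cells (2.29 ± 0.16). Gm4951, Trim30c and the transcript A930037H05Rik differed by 4.80 ± 0.51, 3.29 ± 0.19 and 3.41 ± 0.21.

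**Figure D3:**
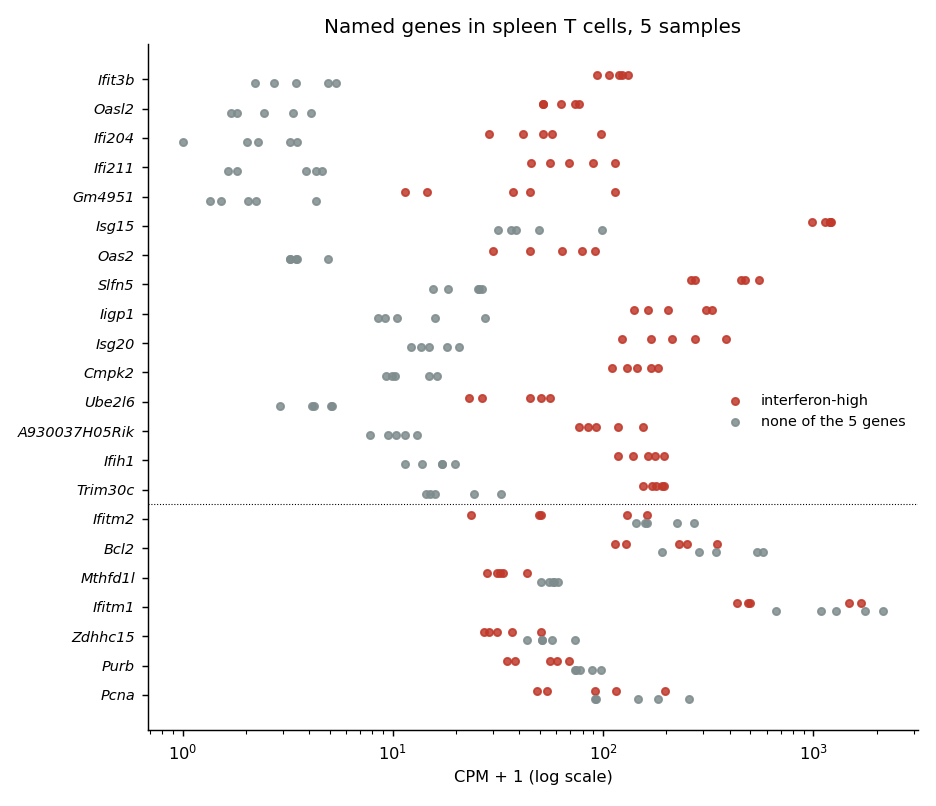
CPM + 1 on a log axis (x) of the named genes in 5 spleen samples, in interferon-high cells (red, upper dots of each row) and in T cells with none of the 5 genes (grey, lower dots). Genes above the dotted line were higher in interferon-high cells and those below it lower. Above the line no gene's groups overlap, and Isg15 runs from 986 to 1215 CPM in interferon-high and from 30.8 to 97.9 CPM in comparison cells.

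Genes best known for their response to interferon-gamma were also higher. Of 17 GTPases of the GBP and IRG families, which attack the vacuoles of intracellular microbes, 16 were tested and all were higher, with a median of 2.31. Iigp1 was at 307, 327, 140, 203 and 163 CPM in interferon-high and at 26.5, 15, 9.43, 7.46 and 8.22 CPM in comparison cells (4.22 ± 0.23). Gbp6 differed by 2.68 ± 0.17, Irgm1 by 2.24 ± 0.14 and Igtp by 2.19 ± 0.12, while Tgtp1 and Tgtp2 are near copies whose counts may be split. Of 20 genes of MHC class I presentation 11 were higher, with a median of 0.44. These were smaller differences, such as 1.09 ± 0.11 for the non-classical H2-T22, 0.92 ± 0.10 for the immunoproteasome subunit Psmb10 and 0.93 ± 0.11 for the peptide-loading factor Tapbp.

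Among 24 receptors and signalling genes, 23 were tested and 4 were higher, and these included inhibitors and inducers. Socs1, a brake on Jak kinases, was at 223, 289, 244, 305 and 213 CPM in interferon-high and at 88.1, 93.3, 122, 147 and 94.0 CPM in comparison cells (1.31 ± 0.14). Irf1 differed by 0.74 ± 0.14, Irf2, which competes with Irf1, by 0.62 ± 0.12, and Tlr7, an RNA sensor of endosomes, by 3.26 ± 0.64 at 3.74 to 14.9 CPM against 0.453 to 1.79 CPM.

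T cell function genes differed at few points, where 3.41% of all genes tested were higher and 0.0909% lower. Of 22 effector genes 2 were higher and 1 lower: the death ligand Tnfsf10 (TRAIL, 1.35 ± 0.17), granzyme B (Gzmb, 0.49 ± 0.11) and granzyme A (Gzma, -1.08 ± 0.26). Gzma was at 547, 461, 266, 133 and 27.2 CPM in interferon-high and at 1493, 1225, 197, 416 and 336 CPM in comparison cells, so that it was lower in 4 of 5 pairs and higher in MitoNegative donor 1. Of 17 inhibitory receptor genes 1 was higher, Cd274 (PD-L1, the ligand of PD-1), at 119 to 159 CPM in interferon-high and 32.8 to 37.4 CPM in comparison cells (1.99 ± 0.14). Eomes, a memory transcription factor, was higher (1.44 ± 0.21) and the survival gene Bcl2 lower (-0.70 ± 0.17) among 17 stem and memory genes. Cd69, which keeps T cells in tissue, was the 1 of 15 immediate early genes that was higher (1.16 ± 0.17).

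Casp4, Casp8 and Mlkl, which act in pyroptosis, apoptosis and necroptosis, were higher by 1.82 ± 0.19, 0.77 ± 0.13 and 1.88 ± 0.35, and Bbc3 (PUMA) was lower by a fitted -2.12 ± 0.59. The interferon-induced membrane proteins Ifitm1 and Ifitm2 went against their group: Ifitm2 was at 128, 48.8, 161, 49.6 and 22.6 CPM in interferon-high and 271, 143, 225, 161 and 158 CPM in comparison cells (-1.07 ± 0.22), and Ifitm1 differed by -0.64 ± 0.18. The other named lower genes were Mthfd1l, Zdhhc15, Purb and the replication clamp gene Pcna (-0.53 ± 0.15), the last being the 1 of 21 S phase genes that passed. Among 22 G2/M genes 0 passed, and the medians of both cell cycle lists were negative, at -0.45 and -0.37. No gene passed among 32 nuclear oxidative phosphorylation, 13 mitochondrially encoded and 30 ribosomal protein genes, with medians of 0.01, -0.01 and 0.07.

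Myeloid marker RNA moved with the interferon-high state. The summed level of 20 myeloid markers was 565 ± 163 CPM in interferon-high and 341 ± 43.9 CPM in comparison cells (SD, n = 5, higher in 5 of 5 samples, exact sign-flip p = 0.0625, the smallest possible). Of these markers 19 of 20 were higher over all spleen cells and none was at 0, and 1 of 17 tested passed, Ctss (1.12 ± 0.14), a protease gene that interferon also induces. Lyz2 was at 24.1 CPM in interferon-high and 2.92 CPM in comparison cells of the spleen. S100a8 and S100a9, neutrophil genes, reached 370 and 451 CPM and 471 and 201 CPM in MitoNegative donors 1 and 2, with S100a8 resting on 3 cells of which 1 held 770 UMIs of it. All 8 stromal markers were at 0. In an alternative chosen after the data were seen, without cells holding 2 or more UMIs of 19 markers scarce in T cells, which removed 49 interferon-high spleen cells, 460 genes were higher and 70 lower. The planned exclusion of cells with 2 or more UMIs of the 20 myeloid markers removed 328 of the 474 and left 351 genes, 238 higher and the rest lower. What part such RNA has in the other differences was not tested.

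In the tumor the same kinds of genes differed, over 3 samples with 13, 18 and 5 interferon-high cells. Of the 9901 genes 348 passed (3.51%), 240 on the higher side (2.42%) and 108 on the lower (1.09%), with a median over all genes of -0.13. Without the sample as a block, 179 were higher and 21 lower. Without donor 3, 125 genes passed. Donor 1 had no tumor sample in the fit, and without its spleen samples 175 passed. Without donor 2 only MitoPositive donor 3 was left in the tumor, so the count of that fit is not read as a result. Of the genes higher in either tissue 144 were higher in both, which is 60.0% of those of the tumor and 42.6% of those of the spleen. Of 76 other interferon-stimulated genes 61 were higher and 0 lower, with a median of 2.25, and of 16 GTPases 14 were higher, with a median of 2.62.

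Isg15 was at 467, 393 and 347 CPM in interferon-high cells of MitoPositive donors 2 and 3 and MitoNegative donor 2, against 12.5, 10.9 and 54.6 CPM in comparison cells (4.56 ± 0.40). Gbp5, a GTPase, was at 127, 296 and 53.4 CPM against 10.8, 13.0 and 9.63 CPM (3.92 ± 0.31), and Oas3, an RNA sensor, at 68.9, 88.8 and 66.7 CPM against 4.05, 5.59 and 4.81 CPM (3.91 ± 0.40). In each the interferon-high samples lay above all comparison samples. Ifi204 and Ifi207, again relatives whose reads may be shared, differed by 5.57 ± 0.72 and 6.76 ± 1.11, Iigp1 by 4.86 ± 0.47, Slfn5 by 4.51 ± 0.42, Rtp4 by 3.84 ± 0.41, Ddx60 by 3.66 ± 0.42 and Ifit2 by 3.59 ± 0.45. The transcripts A330040F15Rik and A930037H05Rik differed by 4.27 ± 0.30 and 4.14 ± 0.43.

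Some of the higher tumor genes are also expressed by antigen-presenting cells. Il15, a cytokine that sustains memory T cells, was at 10.6, 102 and 66.7 CPM in interferon-high and at 1.05, 2.26 and 3.21 CPM in comparison cells. Cd86, a costimulatory ligand, was at 15.9, 220 and 240 CPM against 9.64, 10.6 and 9.63 CPM, and Marcks at 5.30, 118 and 227 CPM against 3.57, 2.38 and 11.2 CPM. For all 3 genes the sample of MitoPositive donor 2 was far below the other 2. Myeloid markers summed to 1571 ± 1488 CPM in interferon-high and 327 ± 59.9 CPM in comparison cells (SD, n = 3, range 292 to 3203 CPM and 261 to 378 CPM). Of 17 tested 4 passed, among them Csf1r, the macrophage growth factor receptor (0, 55.0 and 13.3 CPM against 1.05, 0.357 and 8.02 CPM). Over all 42 interferon-high tumor cells, which include the 2 barcodes with Pmel, 19 of 20 markers were higher and Ms4a7 was at 0. In that pool all 8 melanoma markers were higher too, at a sum of 4424 against 5.33 CPM.

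Bst2, Cd74, H2-Aa and H2-Ab1, of 7 tested dendritic cell markers, were higher as well, and over all 42 cells Xcr1, Clec9a, Cd209a and Siglech were at 0. The summed T cell list was 8301 CPM in interferon-high and 9904 CPM in comparison cells and lower in 3 of 3 samples (exact p = 0.25, the smallest possible). Of the 42 cells 5 (11.9%) held 2 or more UMIs of the 19 markers scarce in T cells, against 3.87% of comparison cells. Without such cells 160 of the 225 higher genes tested in both fits were higher again (71.1%). Leaving out cells with 2 or more UMIs of the wider myeloid list removed 73.8% of interferon-high and 69.6% of comparison cells. Of the 42, 11 were left. In that fit, which had no replicate tumor samples, Il15, Cd86 and Cd274 turned to the lower side. What part RNA of other cells has in these values was not tested.

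Genes on the lower side in the tumor included Il2, the T cell growth factor, with 0 UMIs in interferon-high cells of the 3 samples in the fit against 69.5, 9.996 and 210 CPM in comparison cells. Havcr2 (TIM-3, an inhibitory receptor) was at 0, 16.9 and 40.0 CPM against 30.9, 44.0 and 96.3 CPM (-1.91 ± 0.53), and Vps26c, of endosome sorting, at 5.30, 8.46 and 13.3 CPM against 82.7, 73.7 and 36.9 CPM (-3.25 ± 0.58). Vps26c did not overlap between the groups, whereas Havcr2 did. Ruvbl2, Lclat1, Pno1, Phtf2, Igfbp7 and Ndc80 were lower by -2.03 ± 0.47, -1.86 ± 0.50, -1.70 ± 0.37, -1.62 ± 0.42, -1.48 ± 0.35 and -2.57 ± 0.59. Of 30 ribosomal protein genes 11 were lower, with a median of -0.36, such as Rps18 (-0.45 ± 0.09). The T cell receptor constant gene Trbc2 was at 4015, 3198 and 4071 CPM against 5453, 5017 and 5411 CPM (-0.66 ± 0.10).

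**Figure D4:**
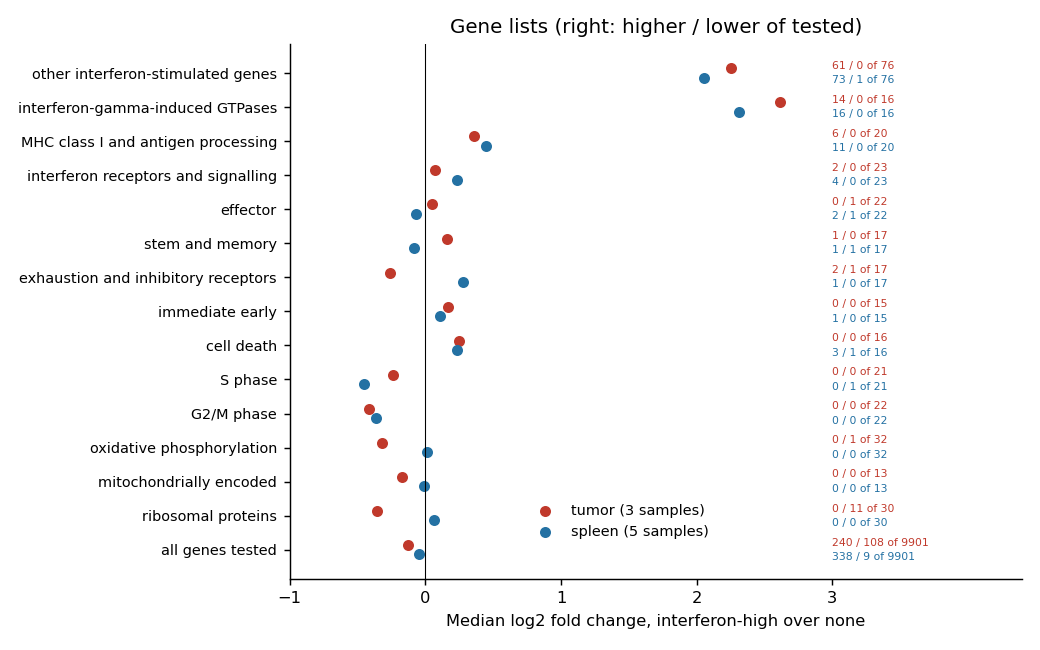
Median log2 fold change of gene lists (x axis), interferon-high cells over T cells with none of the 5 genes, in tumor (red, 3 samples) and spleen (blue, 5 samples). Numbers give genes higher and lower at an adjusted p under 0.05 of those tested. The interferon-stimulated genes and GTPases lie above 2, and the other lists drawn, like all genes tested, between -0.45 and 0.44.

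The difference between tissues was tested in the same fit, since here both sides were selected by the same rule. Of 9901 genes 23 passed (0.232%), with 9 larger in the tumor (0.0909%) and 14 larger in the spleen or opposite there (0.141%). Without the sample as a block 0 passed, although 945 had an unadjusted p under 0.05, and with depth-matched comparison cells 1 passed. Without donor 1, 0 passed (515 at an unadjusted p under 0.05 by edgeR), and without donor 3, 27 passed. Leaving out donor 2 left no replicate tumor samples. Of 76 other interferon-stimulated genes 2 passed, both on the tumor side, while Ifi211, which is not on that list, passed on the spleen side (below). Oas3, at 68.9, 88.8 and 66.7 CPM in interferon-high tumor cells and 4.05 to 5.59 CPM in tumor comparison cells, was already at 30.3 and 34.9 CPM in comparison cells of MitoPositive spleens, where interferon-high cells had 104 and 182 CPM. The difference of its log2 fold changes, tumor minus spleen, was 2.14 ± 0.40 (edgeR quasi-likelihood, adjusted p = 0.016). The other was Ifitm1 (1.46 ± 0.31, adjusted p = 0.0497).

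The change of Ifi211 was smaller in the tumor by 3.02 on the log2 scale. It was at 58.3 and 106 CPM in interferon-high tumor cells of MitoPositive donors 2 and 3 against 22 and 21.3 CPM in comparison cells, and at 67.5 and 44.6 CPM in interferon-high spleen cells of MitoPositive donors 1 and 2 against 0.816 and 0.641 CPM (-3.02 ± 0.46, edgeR adjusted p = 0.0027). Tumor comparison cells thus held more of it than spleen comparison cells. Trbc2 (-0.82 ± 0.12, edgeR adjusted p = 0.0027) and Atp5g1, a subunit of ATP synthase (-0.94 ± 0.18, adjusted p = 0.016), were lower in interferon-high tumor cells and not in those of the spleen. All 30 ribosomal protein genes had a negative difference, with a median of -0.43, but 0 of them passed.

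Among interferon-high spleen cells, those of MitoPositive origin had much less cell cycle RNA than those of MitoNegative origin. Of 5182 genes tested, 136 passed (2.62%), and 39 rose (0.753%) and 97 fell (1.87%) in MitoPositive against MitoNegative interferon-high cells, with a median over all genes of 0.03. Without the library as a block 11 rose and 16 fell, and without donor 3, 281 genes passed. Without donor 1 the MitoPositive arm had no replicate, so the count of that fit is not read as a result. Of the G2/M list 13 of 14 tested genes fell, with a median of -4.70, and of the S phase list 15 of 17, with a median of -2.11. The 2 MitoPositive samples held 40 and 75 cells and the MitoNegative ones 278, 49 and 29.

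Mki67, a marker of proliferation, had 1 and 1 UMIs in the 2 MitoPositive samples (3.38 and 2.12 CPM), against 131, 151 and 113.2 CPM in the 3 MitoNegative ones (edgeR adjusted p = 7.2e-06). Top2a, the topoisomerase of dividing cells, was at 37.1 and 27.6 CPM against 309, 318 and 195 CPM (log2 fold change -3.44 ± 0.38, edgeR adjusted p = 1.6e-06), and the histone gene Hist1h2ae at 13.5 and 4.25 CPM against 340, 305 and 22.6 CPM (-5.28 ± 0.42, adjusted p = 2.7e-09). The groups did not overlap, which was a condition for naming genes by fold change here. MitoNegative donor 3 was lowest of its arm for all 3. Cenpf, Spc24 and Ccna2, genes of mitosis, had 0 UMIs in both MitoPositive samples and 23 to 143, 4 to 149 and 7 to 109 UMIs in the MitoNegative ones.

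The arm difference in cell cycle RNA was also present in T cells with none of the 5 genes. There Mki67 was at 30.4 and 33.6 CPM in MitoPositive samples against 207, 96.0 and 126 CPM in MitoNegative samples, and Top2a at 77.9 and 78.1 CPM against 523, 243 and 328 CPM. In both arms interferon-high cells had less S phase list RNA than comparison cells, 1018 ± 733 CPM against 1449 ± 855 CPM over 5 spleen samples (SD, lower in 5 of 5, exact p = 0.0625, the smallest possible). Whether the state changed RNA differently in the arms was tested in an interaction added after the arm difference was seen: 2 of 9901 genes passed (0.0202%), S100a8 and S100a9, the genes carried by a few cells. For Mki67 the interaction was -3.46 ± 1.19 (edgeR adjusted p = 1.0), and all 22 G2/M genes had a negative value, with a median of -2.71, while 0 passed.

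A few interferon-stimulated genes rose in MitoPositive interferon-high cells. Of 72 tested 5 rose and 0 fell, with a median of 0.38, and of 14 GTPases 1 rose. Slfn5 was at 554 and 471 CPM in MitoPositive against 272, 261 and 453 CPM in MitoNegative samples (1.16 ± 0.25, edgeR adjusted p = 0.0062), and Isg20 at 381 and 272 CPM against 169, 211 and 122 CPM (0.94 ± 0.24, adjusted p = 0.024). Iigp1 was at 307 and 327 CPM against 140, 203 and 163 CPM (1.15 ± 0.26, adjusted p = 0.011). For these 3 genes the arms did not overlap. Ifit1bl1, Ly6c2 and Bst2 rose by 1.06 ± 0.25, 0.74 ± 0.19 and 0.64 ± 0.18 (edgeR adjusted p = 0.012, 0.03 and 0.049). The rule counts detected genes, so depth bears on which cells it picks. All T cells of the MitoPositive samples had medians of 6109 and 5360.5 UMIs, and those of the MitoNegative samples 7179, 5849 and 7376. The part of depth in these differences was not tested.

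Comparison cells followed for some of these genes and not for others. Ifit1bl1 had 33.5 and 24.7 CPM in MitoPositive and 12.1, 11.8 and 15.4 CPM in MitoNegative comparison cells. Isg20 had 12.6 and 11.2 CPM and 19.6, 13.9 and 17.1 CPM there, so that its order was the other way. The interaction for Isg20 was 1.43 ± 0.30 (edgeR adjusted p = 0.22), and that for Slfn5 0.21 ± 0.39 (adjusted p = 1.0), so no difference between the states was called.

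Of 13 effector genes 3 rose, Zeb2, Gzma and Cx3cr1, and 10 did not pass, with a median of 0.15, where 0.753% of all genes rose. No gene passed among 20 of MHC class I presentation, 32 of oxidative phosphorylation and 13 mitochondrially encoded, with medians of 0.08, -0.27 and 0.10. Zeb2, a regulator of effector T cells, was at 149 and 76.4 CPM in MitoPositive against 40.0, 18.3 and 4.53 CPM in MitoNegative interferon-high cells (2.35 ± 0.41, edgeR adjusted p = 0.00068), and the chemokine gene Ccl5 at 8028 and 6448 CPM against 3631, 3733 and 2265 CPM (1.15 ± 0.19, adjusted p = 0.00032). The groups did not overlap for either gene, but non-overlap was a condition for naming genes by fold change here and is not a result. Gzma rose by 1.82 ± 0.37 and Cx3cr1, a receptor of effector cells, by 1.57 ± 0.42 (edgeR adjusted p = 0.0037 and 0.039). Of 16 stem and memory genes 5 rose, with a median of 0.58, among them the transcription factor genes Satb1 (1.55 ± 0.26), Lef1 (1.55 ± 0.27), Foxp1 (0.96 ± 0.20) and Bach2 (1.21 ± 0.25). The surface enzyme gene Art2b rose by 3.18 ± 0.48, the inhibitory receptor genes Lilrb4a and Lilr4b, near copies of each other, by 2.56 ± 0.52 and 2.43 ± 0.54, and Izumo1r (folate receptor 4) by 2.52 ± 0.64. Gm4951, Coro2a, Ppp1r13b and Tm6sf1 rose by 2.78 ± 0.49, 2.27 ± 0.44, 1.89 ± 0.47 and 1.88 ± 0.34. For Gzma the spleen comparison cells, given above, were also higher in every MitoPositive than in every MitoNegative sample. None of the genes named in this paragraph passed in the interaction of state and arm. These arm differences were therefore not shown to be particular to interferon-high cells.

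**Figure D5:**
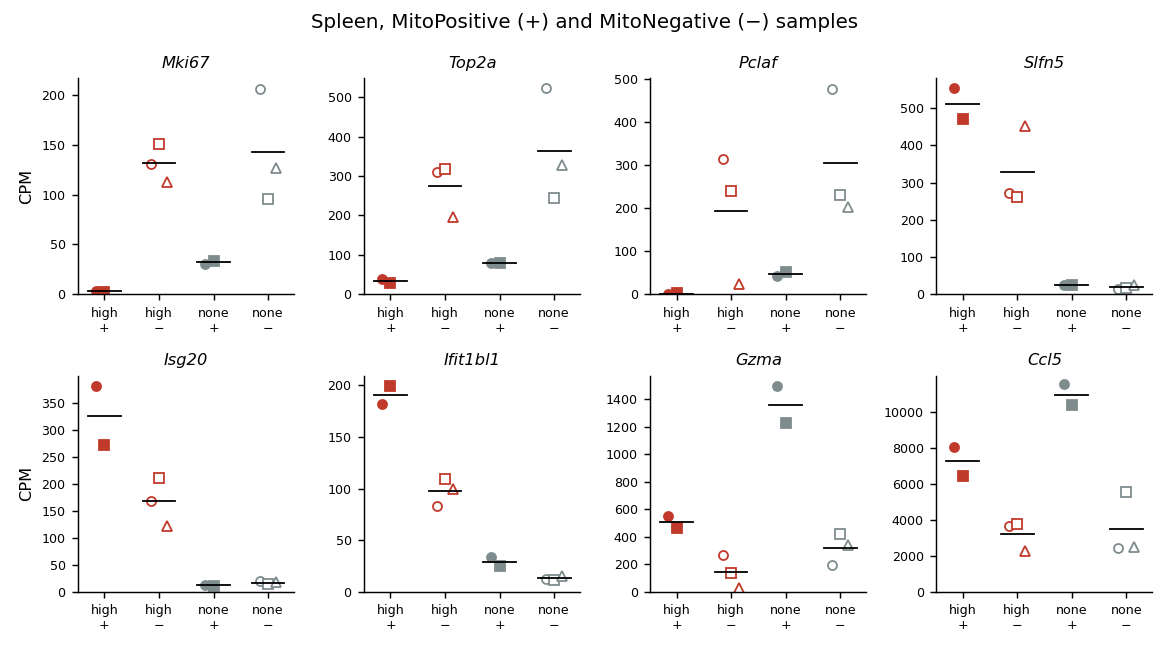
CPM of 8 genes (y axes, linear) in spleen samples: interferon-high cells (high, red) and T cells with none of the 5 genes (none, grey) of MitoPositive (+, filled) and MitoNegative (−, open) origin. Symbols are donors 1 (circle), 2 (square) and 3 (triangle) and lines are means. Mki67, Top2a and Pclaf are lower in MitoPositive samples in both states, and Slfn5 is at 261 to 554 CPM in interferon-high cells and at 14.6 to 25.5 CPM in the others.

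Interferon-high cells of the tumor were set against those of the spleen within the MitoPositive arm, the only one with enough cells (donors 2 and 3 in the tumor, donors 1 and 2 in the spleen). The spleen samples are the ones that also stand in the arm comparison. Both contrasts came from 1 fit that also held the 3 MitoNegative spleen samples, with the library as a block. Only donor 2 had both MitoPositive samples in it. The tumor sample of donor 3 was tied to the spleen through the MitoNegative spleen sample of that donor. Of 5182 genes 765 passed (14.8%), and 385 rose (7.43%) and 380 fell (7.33%) in tumor interferon-high cells, with a median over all genes of -0.02. Without donor 1 the spleen side had no replicate sample, and without donor 3 the tumor side had none. The counts of those fits are not read as results. Fewer cells of a type and less RNA per cell cannot be told apart in such sums.

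Interferon-stimulated RNA was lower in tumor than in spleen interferon-high cells. The rule counts detected genes and so does not set the same level in cells of unlike depth. Of 72 genes 43 fell and 2 rose, Ifitm1 and Ifitm3, with a median of -1.22, and of 14 GTPases 5 fell. Isg15 was at 467 and 393 CPM in tumor against 1215 and 1200 CPM in spleen interferon-high cells (-1.59 ± 0.22, edgeR adjusted p = 1.8e-05), and Ifi209 at 117 and 182 CPM against 537 and 599 CPM (-2.16 ± 0.28, adjusted p = 6e-06). Ifi203, Sp100 and Igtp fell by 1.68 ± 0.22, 1.55 ± 0.23 and 1.57 ± 0.31 on the log2 scale. Comparison cells had the same order, with Isg15 at 12.5 and 10.9 CPM in tumor and 30.8 and 35.4 CPM in spleen. Tumor cells also had more UMIs, with a median of 12227 ± 2368 per sample in the interferon-high cells of 3 tumor samples and 6930 ± 747 in those of 5 spleen samples (SD). The part of depth in the difference was not tested.

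Most immediate early genes rose in tumor interferon-high cells and most stem and memory genes fell. Ifng, the gene of interferon-gamma, was at 854 and 613 CPM in tumor against 54.0 and 57.3 CPM in spleen (4.03 ± 0.35, edgeR adjusted p = 1.1e-08), and the chemokine gene Xcl1 at 2121 and 2200 CPM against 3.38 and 29.7 CPM (7.30 ± 0.45, adjusted p = 2.4e-11). The inhibitory receptor gene Ctla4 was at 286 and 360 CPM against 13.5 and 21.2 CPM (3.78 ± 0.43, adjusted p = 8.5e-07). The groups did not overlap, which was again a condition for naming genes by fold change. Of 11 immediate early genes 7 rose, with a median of 1.25, such as Junb (2.89 ± 0.28, edgeR adjusted p = 7.7e-08), and of 12 inhibitory receptor genes 5 rose. Nrgn, Srgap3, Rgs16 and Kcnk10 had 72 and 79, 8 and 22, 20 and 56, and 10 and 8 UMIs in the 2 tumor samples and 0 in both spleen samples.

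Klf2, the transcription factor of T cell egress, was at 95.5 and 80.4 CPM in tumor against 584 and 512 CPM in spleen (-2.72 ± 0.30, edgeR adjusted p = 4.4e-07). Of 16 stem and memory genes 12 fell, among them Il7r (-1.57 ± 0.28) and Tcf7 (-1.88 ± 0.34), and 1 rose, the homing receptor gene Ccr7 (2.93 ± 0.40, edgeR adjusted p = 1.2e-05). Arhgef18 and Gm44174 fell by 4.13 ± 0.47 and 3.86 ± 0.41. Cd7, Ifngas1 and Gm43647 had 0 UMIs in the tumor samples and 19 and 33, 10 and 24, and 6 and 32 UMIs in the spleen samples.

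Cell cycle genes rose, 16 of 17 of the S phase and 13 of 14 of the G2/M list, but Hist1h2ap was at 1914 and 50.8 CPM in the 2 tumor samples, against 20.3 and 12.7 CPM in spleen, and Mki67 at 202 and 8.46 CPM against 3.38 and 2.12 CPM. The sample of donor 2 thus carried most of it. Comparison cells showed the same directions for these genes, such as Ifng at 988 and 569 CPM in tumor and 37.3 and 45.5 CPM in spleen and Klf2 at 45.7 and 47.7 CPM and 737 and 624.9 CPM.

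Most T cell receptor beta RNA of d7 T cells came from 1 variable segment, and that of interferon-high cells did as well. The share of Trbv UMIs that came from Trbv14 was 91.7% ± 5.98 in interferon-high and 82.2% ± 13.1 in comparison cells of 5 spleen samples (SD, higher in 4 of 5, exact sign-flip p = 0.125). In 3 tumor samples it was 81.7% ± 16.1 and 91.8% ± 2.51 (higher in 1 of 3, exact p = 0.5, where 0.25 is the smallest possible). Interferon-high spleen cells had a median of 6930 ± 747 UMIs and comparison cells 6193 ± 874 (higher in 5 of 5, exact p = 0.0625), and 2.01% ± 0.102 and 2.13% ± 0.111 mitochondrially encoded UMIs (exact p = 0.188). In the tumor the medians were 12227 ± 2368 and 13413 ± 2986 UMIs (exact p = 0.75).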

How the data were processed

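Single-cell RNA and hashtags of d7 CD8 T cells were measured in 3 libraries with 12 hashtagged samples. The authors deposited UMI counts written by Cell Ranger 7.0.0, per the file headers, and the submitters' processing notes name Seurat 4.0.5 and mm10 (GRCm38). Barcodes needed 500 genes, under 15% mitochondrially encoded UMIs, a top hashtag of 10 UMIs and 3 times the next, and a Cd3d, Cd3e or Cd3g UMI. No doublet caller was run. Cells above the 95th percentile of UMIs were left out in an alternative.

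The deposited counts were summed per hashtagged sample and state, scaled by TMM after filterByExpr, and tested with edgeR 4.0.16 in R 4.3.3 (quasi-likelihood, Benjamini-Hochberg, threshold 0.05). The sample, or among interferon-high cells the library, was a block: per the deposited hashtag list both states share the sample's mice and libraries are donors. How many recipients a sample pools is not given in the sources used here, so p-values measure the spread between samples. The selecting and CD3 genes were not tested. Exact tests used SciPy 1.17.1. Intervals and floors cover counting error only. Tumor against spleen among interferon-high cells was planned over both arms and taken as a contrast of MitoPositive samples alone. The fit behind it also held the 3 MitoNegative spleen samples.

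The fits were tested on simulated data. The cells, 26 gene lists and tests were chosen with earlier results of these data known. Genes were named if they passed with 1 sign in all pairs and at least 20 CPM, the 15 highest and 10 lowest in each tissue and 10 and 10 elsewhere, and up to 4 per list by p. Among interferon-high cells the pairs were every sample of 1 side against every sample of the other, so genes named by fold change could not overlap. Other genes were named after their values were seen.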

Additional observations from a re-analysis of the deposited data

Results flagged for a closer look

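In interferon-high spleen cells of MitoNegative donor 1, 1.83% of UMIs were mitochondrially encoded, apart from the other 4 samples, and comparison cells of that sample stood above the other 4 for Isg15 (97.9 CPM) and Oas2 (3.92 CPM). Comparison cells of MitoPositive donor 2 in the spleen held 147 CPM of 8 melanoma markers. These are 4 of 78 groups checked for a sample far from the rest, where chance gives about 1 in 20.

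The difference between interferon-high and comparison cells differed between tumor and spleen for 23 genes and between the arms for 2, S100a8 and S100a9. Outside the T cells, 3.21% of d7 barcodes without a CD3 UMI met the rule.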

How the results depend on the processing

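Under the alternatives, 1652 values of named genes kept direction and call, 298 lost the call, 13 gained it and 3 reversed: without cells with 2 or more myeloid UMIs, Il15, Cd86 and Cd274 in the tumor were at -3.49, -0.68 and -0.73, with 11 interferon-high cells left. That tumor fit had no replicate samples. The cause of the other changes was not tested.

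Against comparison cells in the spleen (347 calls), 4 of 5 genes gave 644, leaving out cells with scarce markers 530 and a minimum of 20 cells 591, and leaving out a donor 202 (donor 1) to 479. Without myeloid UMIs 351 passed, 238 higher and the rest lower, against 9 lower. In the tumor (348), 200 were called with no replicate block, 782 with no count filter, 159 with depth-matched cells, 830 with 2 of 5 and 1263 with 4 of 5 genes, 65 without myeloid UMIs, 601 without the deepest cells, and 125 (without donor 3) to 1040 (without donor 2) leaving out a donor. For tumor minus spleen (23), the same settings gave 0, 243, 1, 263, 920, 10, 281 and 0 to 529, with DESeq2 71, without scarce markers 182 and with HTODemux 145; with no replicate block 0 passed by edgeR at 945 unadjusted. For the arm interaction (2), no filter gave 15, DESeq2 0 (116 at an unadjusted p under 0.05), depth-matched cells 0 (123 by edgeR), no scarce markers 11 and leaving out donor 3 gave 9. Leaving out donor 1 or 2 left the MitoPositive arm without a replicate. In the tumor and for tumor minus spleen, the highest counts on leaving out a donor came without donor 2. Those fits, like the ones without myeloid UMIs, had no replicate tumor samples. Their counts are listed as settings only and are not the ends of a valid range.

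Among interferon-high cells, the arms in the spleen (136) gave 27 with no replicate block, 46 with DESeq2, 41 without myeloid UMIs, 13 with HTODemux, 241 with a minimum of 20 cells and 80 (without donor 1) to 281 (without donor 3). Tumor against spleen (765) gave 262 with DESeq2, 440 with HTODemux and 457 (without donor 1) to 1017. Without donor 1 the MitoPositive spleen side of both contrasts had no replicate sample. Without donor 3 the tumor side of tumor against spleen had none. The counts of those fits are listed as settings only and are not the ends of a valid range. The contrast of arms in the tumor was not run, as no MitoNegative tumor sample had 10 such cells.

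The tumor minus spleen difference in share was -1.67 points with 4 of 5 genes, -3.69 without Cxcl10 and -2.75 with no replicate block (exact p = 0.0346), -1.26 without cells with 2 or more myeloid UMIs (exact p = 0.406), and -4.10 to -1.63 leaving out a donor. The spleen arm difference (-1.56) was -2.69 to -0.0053. Between arms, with the replicate block, the exact p was 0.5 in spleens and 1.0 in tumors. The tumor arm difference (-0.955) reversed to 0.800 thinned, 0.219 and 0.310 with 2 and 4 genes, 0.596 without Cxcl10, and leaving out a donor gave -2.31 to 0.883. Among cell measures, depth-matched cells reversed the spleen differences in median UMIs (-3.6), genes (-49.2) and mitochondrial percent (0.000641) and those of the tumor in UMIs (198) and mitochondrial percent (-0.0749). Leaving out a donor gave -80.1 to 454 CPM for the spleen T cell list, and for the tumor -1186 to 656 UMIs and -68.5 to 1196 CPM of the G2/M list, with the reversed value without donor 3. With 3 to 18 interferon-high cells in most tumor samples, a share or gene at 0 there may have gone undetected and need not be absent.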
